A study of Mus musculus with 72 samples.

Results

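The genes described here are 10 members of the regulated secretory pathway of neurons and endocrine cells: Pcsk1, Pcsk2, Scg5, Cpe, Pam, Chga, Chgb, Scg2, Scg3 and Vgf. The rule that names them uses no measured value, but the list was drawn up with earlier results of these data known, and all 10 were found among the 21749 genes listed in every count table. Hypothalamus of adult B6 mice was sequenced from 5 knockout lines, E1 to E5, each a knockout of 1 conserved noncoding element that the study ties to hibernation. Wild types (WT) were set beside each line. In each line the knockouts (KO) and wild types were either fasted for 72 hours with water or fed, which gives 20 groups and 72 libraries. Groups held 4 libraries, except for 3 in all 4 E3 groups, E2 fasted KO, E2 fasted WT, E4 fasted KO and E1 fasted WT. No treatment other than feeding state was shared or varied in the labels, which do not say how many clones or founders a line comes from, whether each library is 1 animal, or the sex of the mice. The p-values below therefore measure the spread between libraries. Because the elements knocked out are not genes, the counts hold no direct check of the knockouts.

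Neuropeptides and peptide hormones are made as long precursors that are cut, trimmed and modified inside dense-core granules. Pcsk1 and Pcsk2 encode the prohormone convertases that cut precursors after pairs of basic residues. Scg5 encodes a small chaperone needed to activate the Pcsk2 product. Cpe encodes the carboxypeptidase that removes the basic residues left behind, and Pam encodes the enzyme that amidates the peptide end. Chga, Chgb, Scg2 and Scg3 encode granins, acidic proteins that help cargo condense and sort into granules, and Vgf encodes a granin-like precursor of several peptides. In the hypothalamus this machinery processes the peptides that control feeding, water balance and the pituitary, and the feeding peptide genes themselves change in fasting.

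Pcsk1, Scg2 and Chgb are among the genes known to respond to cyclic AMP, which does not mean that the other members do not. The promoter sequences of these 3 are shown because 2 of them, Pcsk1 and Scg2, rose together in fasted E3 wild types, where Chgb was not called. In the same libraries Chga, whose window is also shown, was called lower, and Vgf was not called. The part of any promoter element in these changes was not tested. RefSeq windows on GRCm38.p6, running from 250 bases before to 50 bases after the RefSeq start, were present for 8 of the 10 genes, all but Cpe and Vgf. They were searched for the cyclic AMP response element TGACGTCA, which reads the same on both strands, and for its core TGACG, written CGTCA on the other strand and contained in each full element. The full element was found in 3 of the 8 genes, Pcsk1, Scg2 and Chgb, and in 1.79% of all 32851 promoter windows. The core was found in 7 of the 8 genes, all but Pam, and in 20.8% of all windows. The full element began 78 bases before the RefSeq start in Pcsk1, 68 in Scg2 and 72 in Chgb, and is in capitals below. The Chga window (plus strand, chr12:102554691-102554990) held no full element and 1 core, capitalised, 44 bases before the start, where the window reads TGACGTAA. The other windows were Pcsk1 at chr13:75089607-75089906 on the plus strand, Scg2 at chr1:79439977-79440276 on the minus strand and Chgb at chr2:132781392-132781691 on the plus strand. RefSeq starts differ from the GENCODE starts of the gene coordinates printed later: the whole Chgb window and the Scg2 element lie inside the GENCODE gene. A match of letters describes the window and does not show binding.
Pcsk1: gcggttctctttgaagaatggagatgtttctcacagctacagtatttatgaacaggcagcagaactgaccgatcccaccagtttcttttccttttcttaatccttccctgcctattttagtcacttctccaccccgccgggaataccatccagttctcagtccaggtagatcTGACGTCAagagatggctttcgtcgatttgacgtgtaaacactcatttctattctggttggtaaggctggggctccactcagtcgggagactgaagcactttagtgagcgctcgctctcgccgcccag
Scg2: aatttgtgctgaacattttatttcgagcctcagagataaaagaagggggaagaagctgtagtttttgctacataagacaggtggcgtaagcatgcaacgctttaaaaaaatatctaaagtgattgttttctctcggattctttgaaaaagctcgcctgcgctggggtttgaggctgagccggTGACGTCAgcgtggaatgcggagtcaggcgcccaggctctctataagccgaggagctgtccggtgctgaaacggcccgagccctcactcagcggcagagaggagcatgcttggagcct
Chgb: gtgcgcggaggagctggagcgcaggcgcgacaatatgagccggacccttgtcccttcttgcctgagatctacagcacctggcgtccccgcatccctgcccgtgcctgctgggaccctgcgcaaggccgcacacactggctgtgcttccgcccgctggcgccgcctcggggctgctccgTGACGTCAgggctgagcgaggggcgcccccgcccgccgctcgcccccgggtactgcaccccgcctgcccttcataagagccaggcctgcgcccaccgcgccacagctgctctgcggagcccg
Chga: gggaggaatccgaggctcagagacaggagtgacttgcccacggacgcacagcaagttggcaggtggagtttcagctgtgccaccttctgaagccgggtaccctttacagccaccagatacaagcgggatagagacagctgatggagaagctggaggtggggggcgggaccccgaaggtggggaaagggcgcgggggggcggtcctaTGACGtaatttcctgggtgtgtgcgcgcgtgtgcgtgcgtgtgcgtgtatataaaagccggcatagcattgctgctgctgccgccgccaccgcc

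Total counts ran from 5517552 to 39999368 per library, with a median of 20890991. All 10 hypothalamus markers were above 0 in every library and summed to between 134 and 2365 scaled CPM (read counts scaled to library size), lowest in E3, where the 12 libraries lay between 134 and 303. Of the 12 neuron markers 10 were above 0 in every library, while Nefl and Tubb3 were listed at 0 in all E1 and E3 libraries. Summed anterior pituitary markers were above 500 in 6 libraries, namely all 3 E2 fasted WT, E4 fasted KO 3, E5 fasted KO 3 and E5 fasted WT 3, and at most 201 in the others; only 1 of those 11 markers was above 0 in every library. In E4 fasted KO 1 the 10 most abundant genes took 33.4% of the counts, against at most 4.14% elsewhere. Batch numbers in the labels were shared by fed and fasted libraries only in E1 and in E3, and by E5 fasted with E2 fed. In whole tissue, fewer cells of a type and less RNA per cell cannot be told apart.

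Levels below are scaled CPM, in which each library is scaled by its counts over the genes common to all tables and by a factor that makes libraries comparable. To compare genes with each other they were also divided by exon length. On that scale Cpe was highest, at a mean of 506 scaled CPM per kb over the 72 libraries (range 341 to 688), and Pcsk1 was lowest at 13.2 (range 8.08 to 21.8). Between them came Scg2 at 228, Scg5 at 206, Pam at 112, Chga at 73, Vgf at 65.5, Scg3 at 65.2, Pcsk2 at 63.8 and Chgb at 56.2 scaled CPM per kb. Cpe exceeded Scg2, Scg5 exceeded Pam and Chgb exceeded Pcsk1 in 72 of 72 libraries. Other neighbours in the order changed places: Scg2 was above Scg5 in 47 libraries, Chga above Vgf in 51, Vgf above Scg3 in 40, Scg3 above Pcsk2 in 41 and Pcsk2 above Chgb in 48 of 72. The chaperone transcript Scg5 was the steadiest, with 196 to 296 scaled CPM and a median coefficient of variation within groups of 3.98%. Vgf was the most variable, with 87.4 scaled CPM in E3 fed WT 3 and 491 in E2 fasted WT 3, a 5.61-fold range, and a median coefficient of variation of 12.9%.

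**Figure D1:**
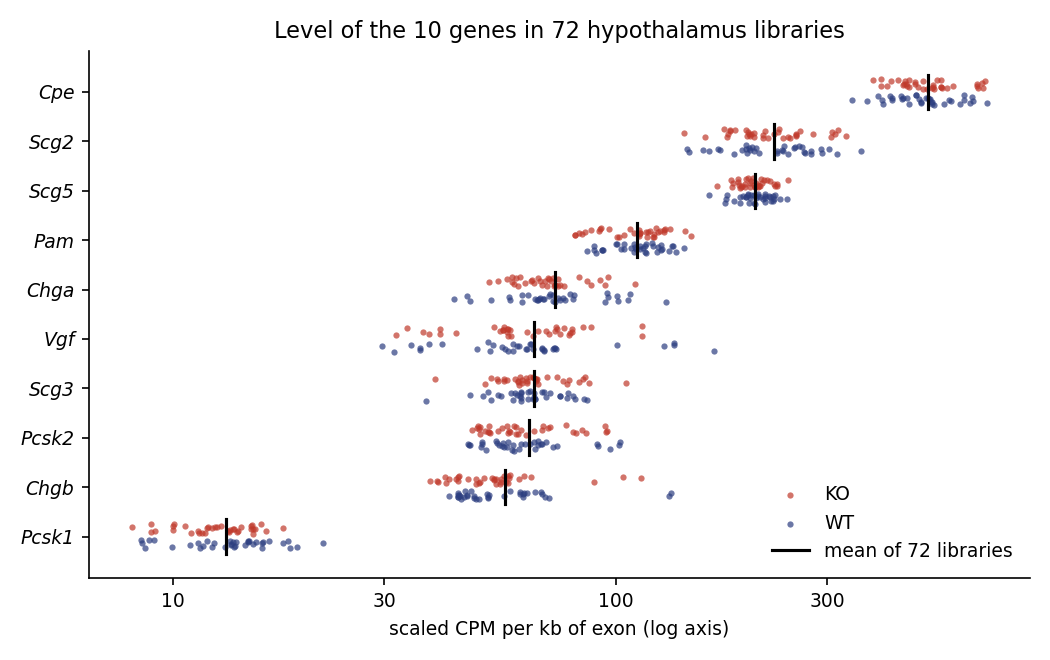
Levels of the 10 genes, in scaled CPM per kb of exon on a log axis, with 1 point per library (knockouts above wild types in each row) and a black bar at the mean of all 72. Cpe lies at 341 to 688, Pcsk1 at 8.08 to 21.8, and 5 of the genes have means between 56.2 and 73.

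Fasting was compared within a batch in 3 ways: E1 fasted against fed, E3 fasted against fed, and E5 fasted against E2 fed, where line and feeding change together and cannot be told apart. The log2 fold changes of the carboxypeptidase transcript Cpe and of Scg2 were positive in all 6 pairs of groups, from 0.19 to 0.54 and from 0.01 to 0.59. Cpe rose in fasted E1 knockouts and in E5 fasted over E2 fed wild types. Scg2 and Pcsk1 rose in fasted E3 wild types, where Chga fell. Chgb rose in fasted E1 knockouts, and Scg3 was higher in E5 fasted than in E2 fed wild types. A gene is called where edgeR's quasi-likelihood test gave a Benjamini-Hochberg adjusted p under 0.05 over all genes tested.

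Of the members, 2 of 10 were called in E1 knockouts, against 34.9% of 14807 genes, and 0 of 10 in E1 wild types, against 5.27% of 14877. There were 0 of 10 in E3 knockouts, against 0.505% of 14663, and 3 of 10 in E3 wild types, against 19.9% of 14534. In E5 fasted over E2 fed, 0 of 10 were called in knockouts, against 0% of 18581 genes, and 2 of 10 in wild types, against 30.7% of 18753. In the 3 comparisons with no member called by edgeR, some members had an unadjusted p under 0.05. They were 1 in E1 wild types, 3 in E3 knockouts and 3 in the E5 and E2 knockouts, beside 23.7%, 13.1% and 14% of all genes. Of these comparisons, DESeq2 called a member only in E3 knockouts, namely Scg2. Over the 60 values of all 6 comparisons edgeR called 7 and DESeq2 called 8. An unadjusted p under 0.05 was found for 17, beside 13.1% to 45% of all genes in single comparisons. The members' median log2 fold change was 0.07 in E1 knockouts, 0.01 in E1 wild types, 0.17 in E3 knockouts, 0.08 in E3 wild types, 0.27 in the E5 and E2 knockouts and 0.10 in the E5 and E2 wild types. The median over all genes lay between -0.03 and 0.02. In the model that takes E1 and E3 wild types together, with line as a term, 2 of 10 members were called, against 10.7% of 15159 genes.

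**Figure D2:**
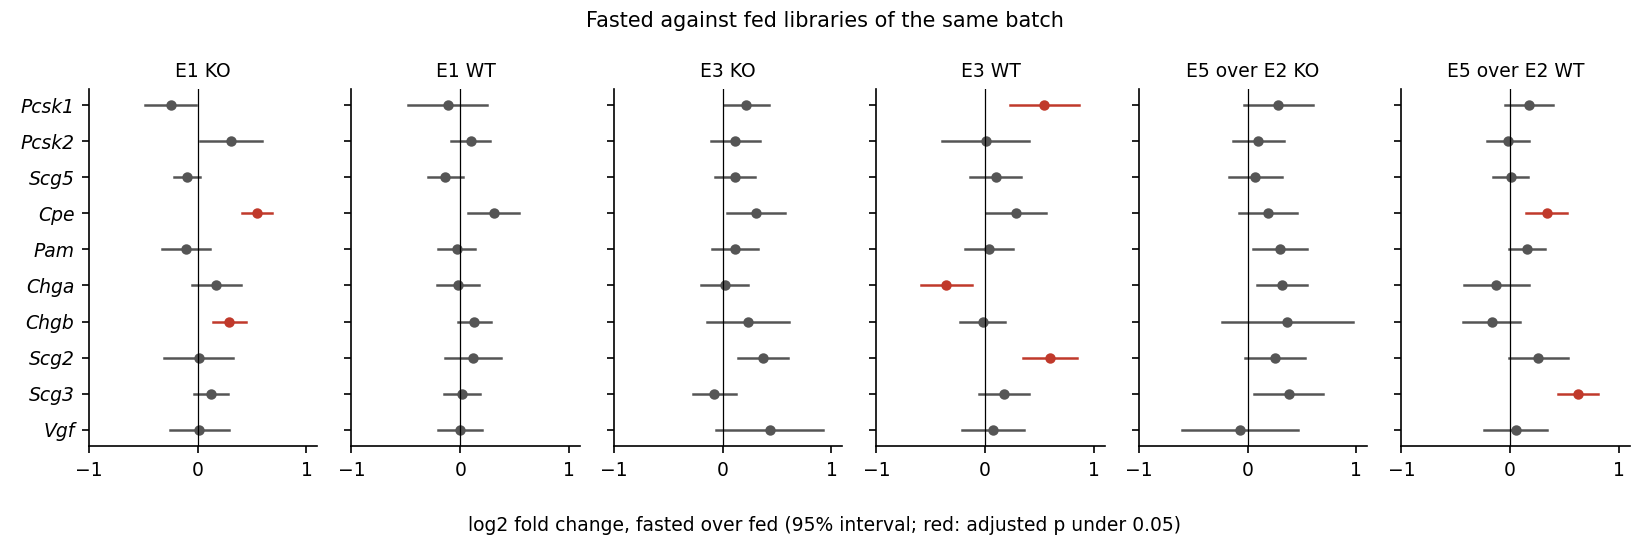
Log2 fold changes of the 10 genes, fasted over fed, in 6 pairs of groups that share a batch, with 95% intervals and called genes in red. The 7 red points are Cpe (0.54) and Chgb (0.29) in E1 KO, Pcsk1 (0.54), Chga (-0.36) and Scg2 (0.59) in E3 WT, and Cpe (0.34) and Scg3 (0.62) in E5 over E2 WT.

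Among the convertases, Pcsk1 (chr13:75089826-75134861, plus strand, mm10) had 91.6, 109.9 and 80.4 scaled CPM in fasted E3 wild types, against 58.9, 74.5 and 61.8 in fed E3 wild types. The lowest fasted library lay above the highest fed one, and the fitted change was 0.54 (SE 0.14, 95% interval 0.23 to 0.86; edgeR adjusted p = 0.0265). Fasted E3 knockouts had 68.7, 59.5 and 67.3, against 53.8, 60.2 and 55.4 in fed E3 knockouts, a log2 fold change of 0.22 (SE 0.09, adjusted p = 0.364) with overlapping libraries. In E1 the sign was the other way, at -0.25 in knockouts (SE 0.11, adjusted p = 0.0942) and -0.12 in wild types (SE 0.16, adjusted p = 0.708). Fasted E1 knockouts had 58.7, 40.7, 50.7 and 44.9 scaled CPM and fed E1 knockouts 57.6, 63.3, 50.4 and 60.6. The difference between the E3 and E1 wild type responses was 0.62 (SE 0.24, interval 0.10 to 1.14, adjusted p = 0.102), and was past the threshold by DESeq2 (adjusted p = 0.0499). The E3 wild type change was 0.30 (adjusted p = 0.218) once a GC content trend was removed per library. Its call was also lost without E3 fed WT 1, E3 fed WT 3 or E3 fasted WT 1 (adjusted p 0.0661 to 0.114).

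Pcsk2 was called in none of the 6 pairs, with log2 fold changes from -0.02 to 0.30, and its libraries overlapped between groups in every pair. Its highest value, 0.30 in E1 knockouts (SE 0.13, adjusted p = 0.0915), came from 244, 271, 335 and 397 scaled CPM in fasted E1 knockouts, against 255, 243, 230 and 281 in fed E1 knockouts. Without E1 fasted KO 1 both convertases of the E1 knockouts passed the threshold, Pcsk1 at -0.35 (edgeR adjusted p = 0.0146) and Pcsk2 at 0.40 (adjusted p = 0.02), and Pcsk1 did so with the GC trend taken out (-0.26, adjusted p = 0.0448). Scg5, whose product chaperones the Pcsk2 convertase, had the narrowest range: its log2 fold changes ran from -0.14 to 0.12 and none was called. Its libraries did not overlap in 3 pairs: the fasted ones were lower in E1 knockouts and E1 wild types and higher in E3 knockouts. In E1 it had 222, 231, 220 and 221 scaled CPM in fasted knockouts, against 246, 233, 236 and 242 in fed knockouts, and 234, 229.9 and 196 in fasted wild types, against 244, 240.4, 238 and 242 in fed wild types. Fasted E3 knockouts had 277, 268.6 and 260.7, against 253, 248 and 248 in fed E3 knockouts. How many of all genes separate in this way was not counted, so no rate stands beside these or the other separations named.

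Cpe (chr8:64592542-64693054, minus strand, mm10) had 1382, 1390, 1383 and 1441 scaled CPM in fasted E1 knockouts, against 957, 944, 960 and 971 in fed E1 knockouts. The 4 fasted libraries all lay more than 400 above the 4 fed ones, and the log2 fold change was 0.54 (SE 0.06, interval 0.41 to 0.68; edgeR adjusted p = 0.000189). Fasted E1 wild types had 1356, 1456 and 1071, against 1063, 934, 1092 and 1088 in fed E1 wild types; the third fasted library sat among the fed ones. That change was 0.31 (SE 0.10, adjusted p = 0.113), and 0.42 (adjusted p = 0.00676) without E1 fasted WT 3. Fasted E3 wild types had 1265, 1347 and 1295, against 1205, 1006 and 1032 in fed E3 wild types, a log2 fold change of 0.28 (SE 0.12, adjusted p = 0.138) with no overlap between the libraries. Fasted E3 knockouts had 1183, 1423 and 1418, against 1103, 952 and 1222 in fed E3 knockouts (0.31, SE 0.12, adjusted p = 0.318). E5 fasted wild types had 1083, 1076, 1292 and 1168, against 889.8, 879.9, 939 and 1021 in E2 fed wild types, again without overlap, and the log2 fold change was 0.34 (SE 0.09, adjusted p = 0.0129). In E1 and E3 wild types together it was 0.29 (SE 0.08, adjusted p = 0.0402), a call lost in 9 of the 13 fits that each leave out 1 library (adjusted p 0.0562 to 0.0994). It held only without E3 fed WT 1, E3 fasted WT 1, E1 fed WT 4 or E1 fasted WT 3. Summed oligodendrocyte markers, with which Cpe correlated within groups (r = 0.58 over 72 libraries that share batches and scaling), were 3798 to 6989 in fasted and 3063 to 3482 in fed E1 knockouts; their part in the result was not tested.

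Pam was called in no pair. Its log2 fold changes ran from -0.11 to 0.30, the highest in E5 fasted over E2 fed knockouts (SE 0.11, edgeR adjusted p = 0.326), where 589, 528, 605 and 531 scaled CPM in E5 fasted knockouts stood against 499, 462, 378 and 517 in E2 fed knockouts. Those libraries did not overlap, but in E1 and E3 they did, at 350 to 464 in fasted and 412 to 497 in fed E1 knockouts and at 366 to 382 in fasted and 354 to 383 in fed E3 wild types. In the E5 and E2 wild types Pam was at 0.16 (SE 0.08, adjusted p = 0.145), and past the threshold without E5 fasted WT 4 (0.22, adjusted p = 0.044).

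Among the granins, Scg2 (chr1:79434669-79440120, minus strand, mm10), the precursor of secretoneurin, had 615, 596 and 582 scaled CPM in fasted E3 wild types, against 396, 432 and 368 in fed E3 wild types. The groups were well apart, with a log2 fold change of 0.59 (SE 0.11, interval 0.35 to 0.84; edgeR adjusted p = 0.00756). Without E3 fed WT 3 it was 0.53 (adjusted p = 0.0556). Fasted E3 knockouts had 586, 503 and 585, against 447.8, 454 and 400.3 in fed E3 knockouts, also without overlap (0.37, SE 0.10, adjusted p = 0.169; 0.0355 by DESeq2). In E1 the values overlapped, at 358 to 641 in fasted and 456 to 539 in fed knockouts (0.01, SE 0.14) and at 428 to 604 in fasted and 408 to 501 in fed wild types (0.12, SE 0.11). The difference between the E3 and E1 wild type responses was 0.44 (SE 0.17, interval 0.07 to 0.80, adjusted p = 0.102), and DESeq2 called it (adjusted p = 0.0377). In E1 and E3 wild types together Scg2 was at 0.33 (SE 0.10, adjusted p = 0.0486); its call was lost in 10 of the 13 fits with 1 library left out, all but those without E1 fed WT 1, E1 fed WT 4 or E1 fasted WT 3, and with no filter on low counts (adjusted p = 0.0504).

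Chga (chr12:102554969-102565028, plus strand, mm10) had 81, 98.3 and 86.9 scaled CPM in fasted E3 wild types, against 119, 116 and 108 in fed E3 wild types. Every fasted library was below every fed one, and the log2 fold change was -0.36 (SE 0.10, interval -0.59 to -0.13; edgeR adjusted p = 0.0385). The call was sensitive to the processing: the change was -0.13 (adjusted p = 0.329) with the GC trend taken out. The call was also lost when any of the libraries E3 fed WT 1, 2 and 3 or E3 fasted WT 1 and 3 was left out (adjusted p 0.0694 to 0.135). In fasted E3 knockouts Chga had 102, 110 and 115, against 117, 97.3 and 111 in fed E3 knockouts, a log2 fold change of 0.02 (SE 0.10). In the E5 and E2 knockouts it was 0.32 (SE 0.10, adjusted p = 0.306). It was 0.22 without E5 fasted KO 3, the library high in pituitary markers. Chga passed the threshold in E1 knockouts without E1 fasted KO 4 (0.27, adjusted p = 0.0105), and in the E5 and E2 wild types both Chga (-0.27, adjusted p = 0.042) and Chgb (-0.29, adjusted p = 0.0312) did so without E2 fed WT 1.

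Chgb (chr2:132781278-132795079, plus strand, mm10) rose in fasted E1 knockouts, which had 145, 150, 127 and 151 scaled CPM, against 115, 119, 121 and 113 in fed E1 knockouts. The lowest fasted library was above the highest fed one, with a log2 fold change of 0.29 (SE 0.07; edgeR adjusted p = 0.0076) that stayed called in all 12 alternatives tried. Fasted E1 wild types had 132, 141 and 141, against 131, 127, 126 and 121 in fed E1 wild types, also without overlap, where the change was 0.13 (SE 0.07, adjusted p = 0.266). Pituitary markers, with which Chgb correlated over all libraries, summed to 1.34 to 3 in fasted and 4.81 to 6.75 in fed E1 knockouts. In E3 wild types Chgb had 121, 120 and 122 in fasted and 131, 125 and 115 in fed libraries (-0.02, SE 0.09).

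Scg3 (chr9:75643189-75684056, minus strand, mm10), whose product binds that of Chga at the granule membrane, had 186, 178, 202 and 178 scaled CPM in E5 fasted wild types, against 138, 123, 120 and 112 in E2 fed wild types. No library overlapped and the log2 fold change was 0.62 (SE 0.08, interval 0.44 to 0.81; edgeR adjusted p = 0.000457), called in all 13 alternatives. The knockouts of the same lines were at 0.38 (SE 0.14, adjusted p = 0.323). Within a line its log2 fold changes ran from -0.08 in E3 knockouts to 0.18 in E3 wild types (SE 0.10, adjusted p = 0.252). In E1 wild types 143, 145 and 131 in fasted libraries stood among 146, 140, 125 and 141 in fed ones. Vgf was called in no pair, with log2 fold changes from -0.07 to 0.43 and overlapping libraries in all 6. The highest, in E3 knockouts (SE 0.21, adjusted p = 0.439), came from 112, 109 and 197 scaled CPM in fasted E3 knockouts, against 99.5, 118 and 94 in fed E3 knockouts.

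**Figure D3:**
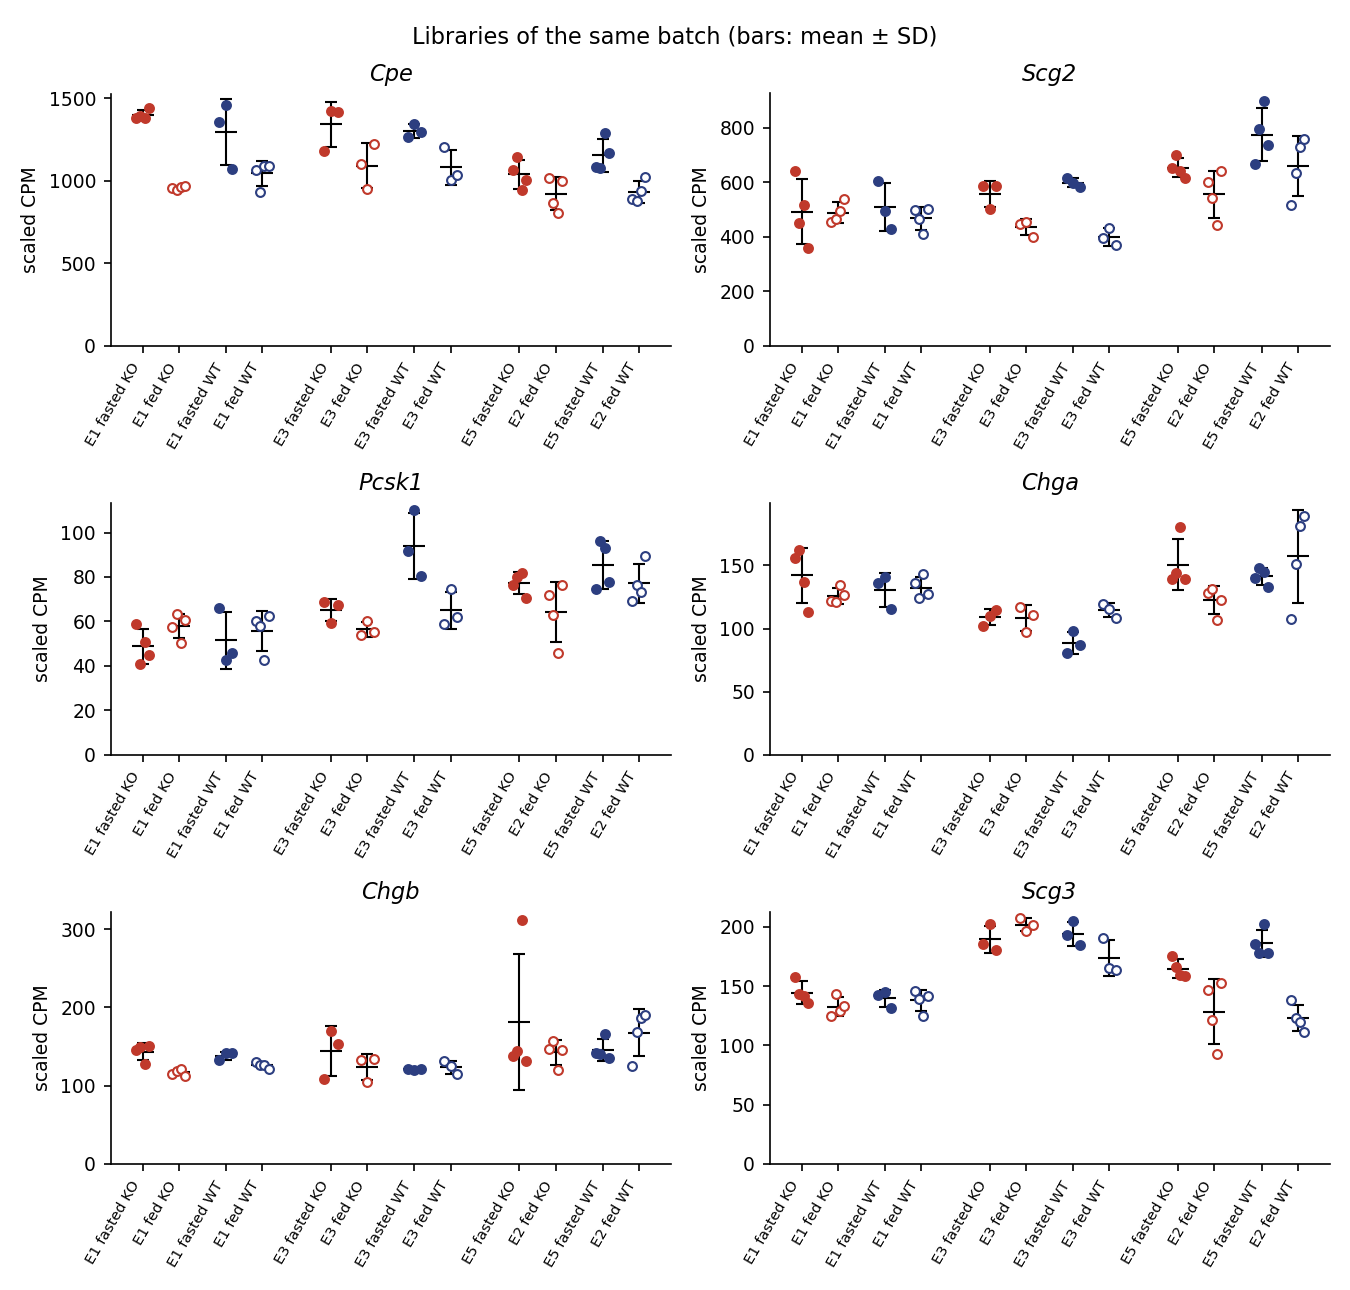
Scaled CPM of 6 of the genes in single libraries of the 3 batches that hold fed and fasted mice, knockouts in red and wild types in blue, fasted filled and fed open, with the mean and SD of each group. Cpe in E1 knockouts (1382 to 1441 fasted, 944 to 971 fed) and Scg3 in E5 fasted over E2 fed wild types (178 to 202 and 112 to 138) are apart, while 1 library, E5 fasted KO 3, lifts the Chgb mean of its group.

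Cell type markers differed with feeding in the same libraries. Neuron markers summed to 8145 to 8448 scaled CPM in fasted and 6924 to 7130 in fed E3 wild types, and to 5376 to 6133 in fasted and 4648 to 4894 in fed E1 knockouts. Hypothalamus markers summed to 210 to 294 in fasted and 155 to 195.4 in fed E3 wild types. Their list includes the peptide genes Hcrt, Pmch, Agrp, Pomc, Avp and Oxt. The level of such genes can itself change with feeding, so the sum does not measure tissue content alone. In E1 the hypothalamus sum went the other way, again without overlap. It was 211.7 to 387.998 in fasted and 391.2 to 492.6 in fed E1 knockouts. E1 wild types had 313.4 to 370.5 in fasted and 373.5 to 449.96 in fed libraries. Thalamus markers summed to 946 to 1836 in fasted and 1831 to 2333 in fed E3 wild types. Astrocyte markers, of which 2 of 6 were called higher in the E1 and E3 wild types together (10.7% of all genes were called), summed to 1350 to 1708 in fasted and 1110 to 1277 in fed E3 wild types, and to 1392 to 1633 in E5 fasted and 908 to 1128 in E2 fed wild types. In E1 knockouts their sum was 1075 to 1381 in fasted and 976 to 1053 in fed libraries. Of the 6 endothelial markers 4 fell in E3 wild types, where 19.9% of all genes were called, and their sum was 46.7 to 74.5 in fasted and 116 to 141 in fed libraries. Cortex and hippocampus markers summed to 94.1 to 452 in fasted and 55.3 to 74.5 in fed E1 knockouts, and to 85.8 to 389 in fasted and 63.2 to 90.8 in fed E1 wild types. Within groups Scg2 correlated with the endothelial sum at r = -0.66, with the thalamus sum at r = -0.63 and with the astrocyte sum at 0.67, and Cpe with the astrocyte sum at 0.61, over 72 libraries that share batches and scaling. The part of these markers in the fasting results was not tested.

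Direct tests of whether the fasting response differed found no member called. E1 and E3 are separate batches, so in this difference line and batch cannot be told apart. For E3 minus E1 wild types 0 of 10 were called by edgeR, against 13.1% of 15159 genes. At an unadjusted p under 0.05 there were 3, beside 30.4% of all genes. DESeq2 called 2 of them, and the remaining value was Chga at -0.37 (SE 0.14, edgeR adjusted p = 0.0814). Chga was past the threshold without E1 fasted WT 3 or E3 fasted WT 2 (adjusted p 0.0323 and 0.0354), Pcsk1 without E1 fasted WT 1 or E1 fed WT 3 (0.0252 and 0.0497) and Scg2 without E1 fasted WT 1 (0.0306). For knockout against wild type responses within a line 0 of 10 were called in each of the 5 lines by edgeR and by DESeq2. That compares with 1.34% of 15033 genes in E3, and 0% of all genes in E1, E2, E4 and E5. Of the 50 values 4 had an unadjusted p under 0.05, beside 5.95% to 20.4% of all genes in the 5 lines. The smallest was that of Chga in E3, at 0.40 (SE 0.14, interval 0.10 to 0.69, edgeR adjusted p = 0.127) and at 0.11 with the GC trend taken out. The intervals of these differences are wide, with a median SE of 0.16, and 23 of the 50 lay wholly within 0.5 of 0 on the log2 scale.

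Knockouts were compared with wild types of the same line and feeding state in 10 tests. No member was called in any of them: 0 of 100 values were called by edgeR, beside 0% of all genes in each of the 10 tests (14590 to 20243 genes tested). An unadjusted p under 0.05 was found for 8 of the 100, beside 2.82% to 17.5% of all genes in single tests. DESeq2 called 1, Pcsk1 in fasted E3 mice. The log2 fold changes were positive in 47 of the 100. The median SE was 0.11, and 78 of the 100 intervals lay wholly within 0.5 of 0 on the log2 scale while the remaining intervals reached beyond that and so allow larger changes.

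The smallest p was that of Pcsk1 in fasted E3 mice, with 68.7, 59.5 and 67.3 scaled CPM in knockouts, against 91.6, 109.9 and 80.4 in wild types. All 3 knockouts were below all 3 wild types, and the log2 fold change was -0.53 (SE 0.13, interval -0.82 to -0.23, edgeR adjusted p = 0.164). It was past the threshold with DESeq2 (adjusted p = 0.0178) and with fed and fasted E3 mice in 1 model (adjusted p = 0.0373), and was -0.31 (adjusted p = 0.571) with the GC trend taken out. The authors' deposited table, which gives WT over KO, has 0.53 for this gene, with a p of 0.0051 and an adjusted p of 1. It was the only 1 of 80 values for the 10 genes, over 8 of the 10 comparisons, with a p under 0.05 in the authors' deposited tables, and 0 had an adjusted p under 0.05. In fed E3 mice Pcsk1 had 53.8, 60.2 and 55.4 in knockouts, against 58.9, 74.5 and 61.8 in wild types (-0.22, SE 0.10, adjusted p = 0.527). Chga in fasted E3 mice was at 0.29 (SE 0.11, adjusted p = 0.231), and at -0.01 with the GC trend taken out. Scg3 in fed E3 mice had 207, 197 and 201 in knockouts, against 191, 165 and 164 in wild types, without overlap (0.20, SE 0.08, adjusted p = 0.483).

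Fasted E2, E4 and E5 mice included libraries high in pituitary markers, whose part in the Chgb differences was not tested. Chgb in fasted E2 mice had 155, 147 and 156 scaled CPM in knockouts, against 153, 361 and 366 in wild types, a log2 fold change of -0.95 (SE 0.32, edgeR adjusted p = 0.66). The first wild type was level with the knockouts, and the summed pituitary markers were 2.51 to 29.8 in the knockouts and 1307, 11912 and 5770 in the wild types. Without E2 fasted WT 1 Chgb was at -1.26 (adjusted p = 0.0263), and without E2 fasted WT 3, which had 491 of Vgf against 188.5 and 152 in the other wild types, Vgf was at 0.55 (adjusted p = 0.0416). Scg2 had 772, 799 and 785 in E2 fasted knockouts, against 662, 639 and 694 in E2 fasted wild types, without overlap (0.24, SE 0.12, adjusted p = 0.71). In E4 fasted mice Chgb was at 0.32 (SE 0.14, adjusted p = 0.528), at 0.69 (adjusted p = 0.635) with the GC trend taken out, a fit in which the median of all genes was 0.24, and at 0.14 without E4 fasted KO 3, with 285 of Chgb and a pituitary sum of 6583. Another E4 fasted KO library had 244 of Chgb with a pituitary sum of at most 58.5. Chgb in E5 fasted knockouts had 138, 144, 312 and 132, against 142, 141, 166 and 135 in E5 fasted wild types, and the 312 stands in the library whose pituitary markers summed to 19604. In the same mice Scg2 was at -0.25 (SE 0.10, adjusted p = 0.669) and Scg3 at -0.18 (SE 0.08, adjusted p = 0.678), from 175, 167, 159 and 158 in knockouts, against 186, 178, 202 and 178 in wild types. Without the libraries high in pituitary markers, E5 fasted KO 3 and E5 fasted WT 3, Scg2 was at -0.15 and Scg3 at -0.11.

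**Figure D4:**
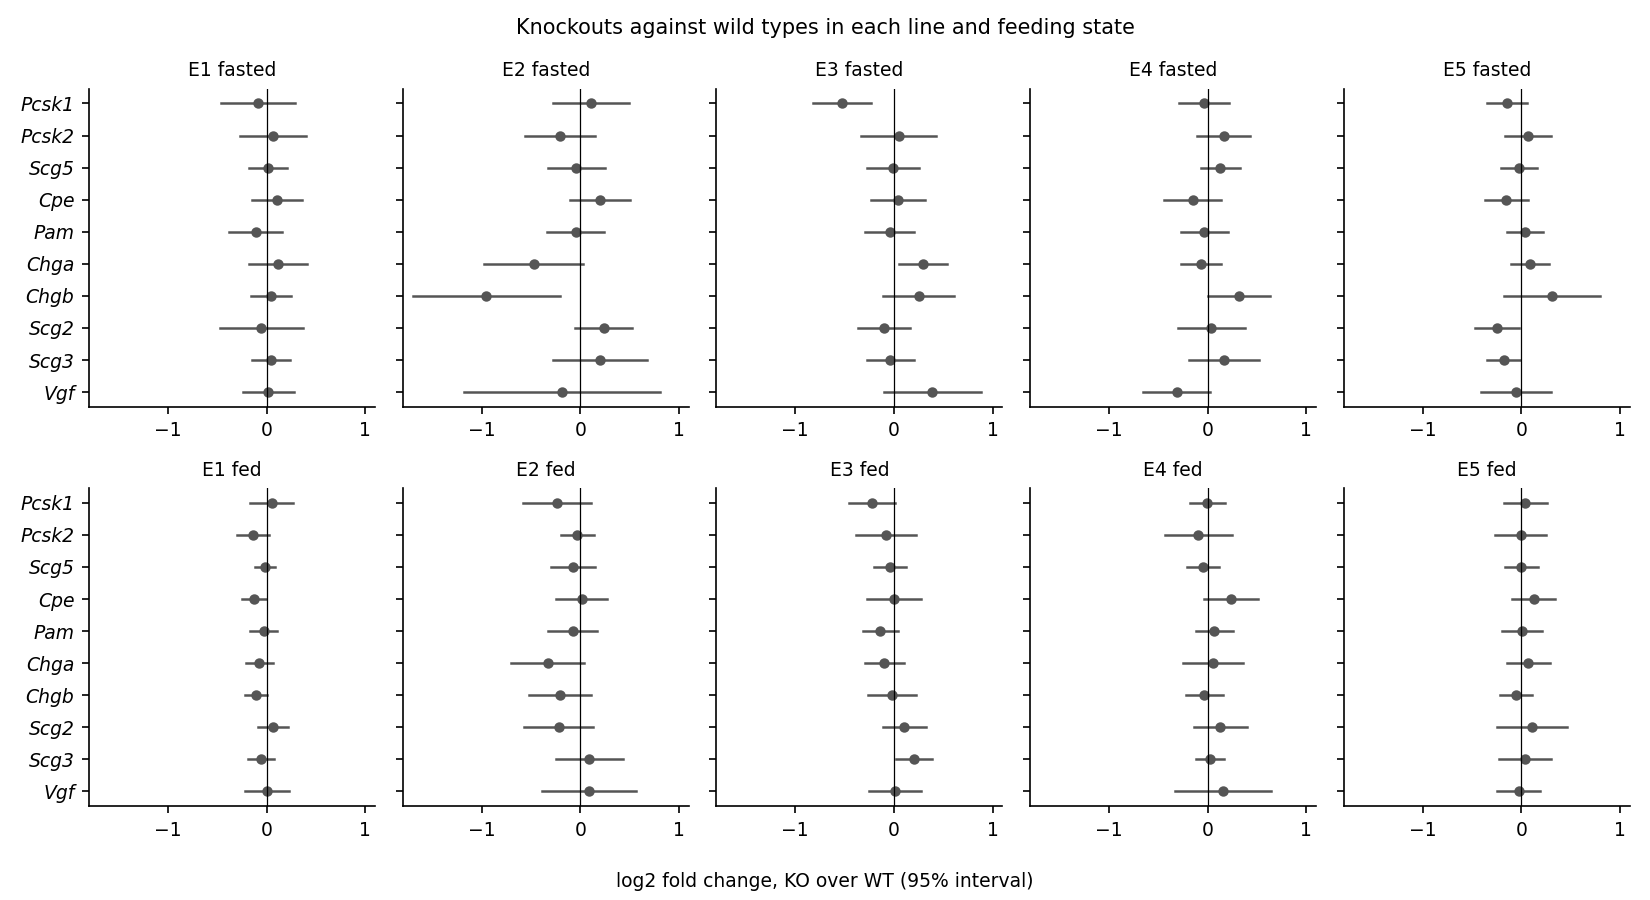
Log2 fold changes of the 10 genes, KO over WT, in each line (columns) fasted (upper row) and fed (lower row), with 95% intervals. None was called; the values farthest from 0 are Chgb in E2 fasted (-0.95) and Pcsk1 in E3 fasted (-0.53).

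The 10 genes did not vary as 1 block between libraries of a group. Over the 72 libraries, each centred on its group mean on the log2 scale, Pcsk1 correlated with Pam at r = 0.70 and with Scg2 at 0.60, and Chga with Chgb at 0.63, whereas Pcsk2 ran against Vgf at -0.52 and Pcsk1 stood at -0.01 with Vgf. Pcsk2 followed the summed thalamus markers at r = 0.83, and Chgb the pituitary markers at 0.57, while Vgf and Chga followed the hypothalamus markers at 0.61 and 0.59. In E4 fed WT 4, for instance, the thalamus sum was 1940, against 1065 to 1179 in the other 3 of its group, and Pcsk2 was 428, against 263 to 278.7. In that library Vgf was 102, against 203 to 215, and the hypothalamus sum 205, against 433 to 521.97. E3, the line lowest in hypothalamus markers, also had the highest Pcsk2, with group means from 404 to 433 scaled CPM, and the lowest Vgf, with 102 to 139; E3 is 1 batch, so line and batch cannot be told apart. These are correlations between libraries that share batches and scaling, and carry no test. The hypothalamus sum includes peptide genes. Its values of 2365 (an E2 fasted WT library) and 1762 (E5 fasted KO 3) lay in libraries high in pituitary markers.

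**Figure D5:**
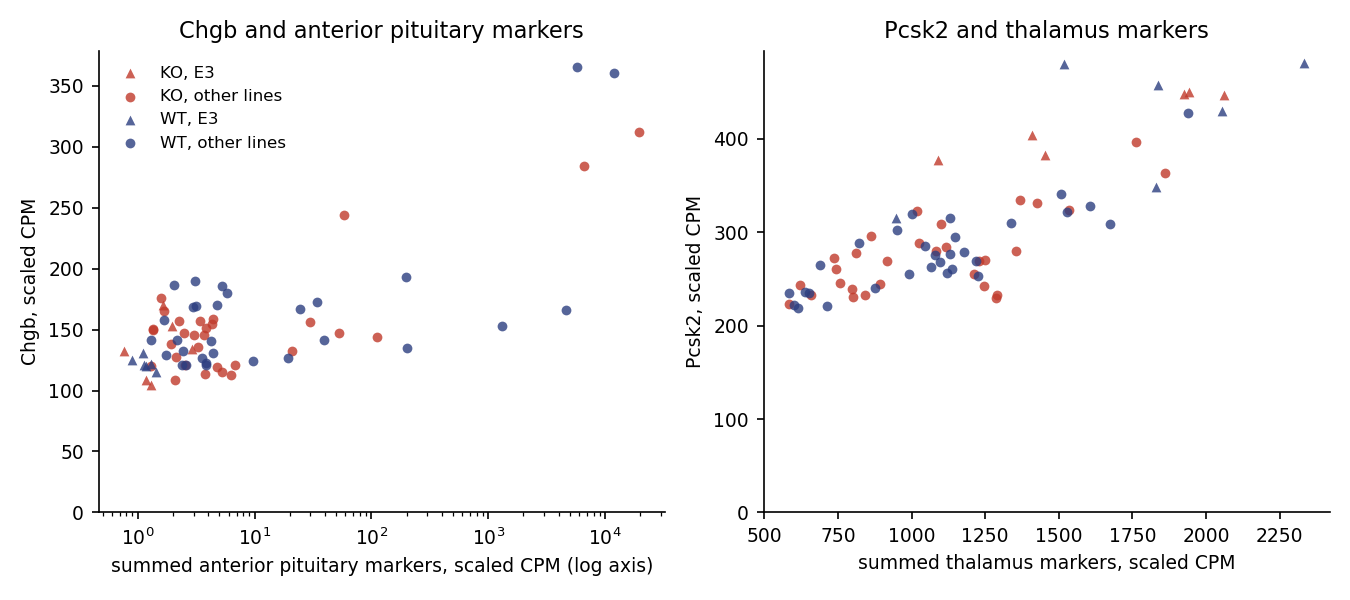
Scaled CPM of Chgb against summed anterior pituitary markers (log axis) and of Pcsk2 against summed thalamus markers in the 72 libraries, knockouts in red, wild types in blue and E3 as triangles. Chgb is above 250 in 4 libraries, all with pituitary sums of 5770 or more. An E4 fasted KO library with 244 of Chgb had a pituitary sum of at most 58.5. E2 fasted WT 1 (sum 1307) had 153 of Chgb, and E5 fasted WT 3 (sum 4629) at most 166. Pcsk2 is above 400 in libraries with thalamus sums of 1409 or more.

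In E2, E4 and E5, fed and fasted libraries came from different batches, so feeding and batch cannot be told apart and no test was made. In E4, Chga had 186 ± 18.6 scaled CPM in fasted and 122 ± 13.6 in fed knockouts (SD, n = 3 and 4), and 193 ± 10.6 in fasted and 118 ± 20.4 in fed wild types (n = 4 each), with no overlap in either. Vgf had 369 ± 48.6 in fasted and 183 ± 54.5 in fed E4 wild types, a ratio of 2.01, and Chgb 183 ± 8.79 in fasted and 123 ± 3.93 in fed E4 wild types. Pcsk1 went the other way, at 51.6 ± 6.11 in fasted and 73.3 ± 5.26 in fed E4 wild types and 50.9 ± 6.2 in fasted and 72.7 ± 4.6 in fed E4 knockouts. The hypothalamus sum was 580 to 946 in fasted and 205 to 521.97 in fed E4 wild types. In E5 these 4 genes overlapped between fasted and fed libraries in both genotypes. Other members separated in E5 wild types: Cpe (means 1155 fasted, 824 fed), Scg3 (186, 147) and Pcsk2 (245, 317). Pam did so in E5 knockouts (563, 498). In E2 knockouts Cpe, Scg2 and Chga were higher in fasted libraries without overlap, while Pcsk1 was lower in E2 wild types. In E4, Cpe and Scg3 were higher in fasted wild types and Pam lower in fasted knockouts, also without overlap.

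The rest of the pathway was followed through lists of other genes, chosen with earlier results of these data known. In fasted E1 and E3 wild types together, the list with the most calls was the machinery that brings precursors into the endoplasmic reticulum: 5 of 14 tested rose and 0 fell, beside 10.7% of all genes called, with a median log2 fold change of 0.28 against 0.01 for all genes. Examples are Ssr3 and Ssr4, subunits of the translocon-associated complex (0.50, SE 0.10 and 0.48, SE 0.11), Srp14 of the signal recognition particle (0.46, SE 0.10) and the signal peptidase subunit Spcs3 (0.46, SE 0.12). Their edgeR adjusted p ran from 0.0121 to 0.0243. In E3 wild types alone 8 of 14 rose (19.9% of all genes were called), in E1 wild types 0 of 14 (5.27%) and in E5 fasted over E2 fed wild types 10 of 14 (30.7%). Of the 27 peptide precursors tested, 2 rose, Npy (1.62, SE 0.16) and Sst (0.57, SE 0.15), and Pomc fell (-0.94, SE 0.18). In E3 wild types alone 11 of 27 rose and 0 fell, beside 19.9% of all genes called, and in E5 fasted over E2 fed wild types 14 rose and 1 fell, beside 30.7%.

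The other lists are read against the same 10.7% of all genes called, and several counts lie near it. Of 8 other convertases and their inhibitor 0 rose and 1 fell in E1 and E3 wild types together, namely Pcsk6 (-0.53, SE 0.14, edgeR adjusted p = 0.0305). Of 8 other trimming and modifying enzymes 1 rose, the lysosomal protease Ctsl (0.35, SE 0.09, adjusted p = 0.0233). Among 13 other granule proteins 2 rose, Sv2b, a vesicle membrane glycoprotein (0.56, SE 0.13), and Atp6ap2, an accessory subunit of the proton pump (0.39, SE 0.12). Of 17 genes of granule biogenesis 1 rose, Arfip2 (0.26, SE 0.08), and 2 fell, Gga3 (-0.29, SE 0.07) and Vti1a (-0.30, SE 0.09). Of 20 genes of granule release 2 rose, Rab3b (0.47, SE 0.10) and the fusion protein gene Snap25 (0.33, SE 0.08), and 1 fell, the priming factor gene Unc13a (-0.43, SE 0.10). Over all 7 lists 18 of 107 genes were called (16.8%). In single comparisons of wild types it was 31 in E3 (29%, beside 19.9% of all genes), 5 in E1 (4.67%, beside 5.27%) and 50 in E5 over E2 (46.7%, beside 30.7%). In knockouts it was 38 in E1 (35.5%, beside 34.9%), 0 in E3 (beside 0.505%) and 0 in E5 over E2 (beside 0%). In the 10 genotype comparisons 0 genes of these 7 lists were called by edgeR.

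Outside the pathway, the genes whose deviations from their group means were most like the average of the 10, among 8840 genes over 72 libraries, were Rragb (r = 0.69), Cbx5 (0.68), Morf4l2 (0.66), Luc7l (0.65), Rcan3 (0.65), Tceal9 (0.65), Crebl2 (0.64) and Vamp4 (0.64). The likeness is a description over libraries that share batches and scaling.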

How the data were processed

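Counts per gene were deposited by the authors as 10 raw tables, which were used unscaled; per the submitters' processing notes HISAT2, Bowtie2, edgeR and mm10 were used, and the counting tool and its use of strand are not given in the sources used here. The authors also deposited edgeR tables with log2 fold changes (WT over KO) and p-values, from which gene symbols were taken. RNA was total RNA prepared with Qiagen RNeasy and the Ultra II DNA library kit, per the labels. Columns of the E3 tables that begin ctrl or 3CR were read as fed or fasted, as the tables are named. The 10 genes and all gene lists were chosen with earlier results of these data known.

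Each comparison was fitted on all genes of its libraries with edgeR 4.0.16 in R 4.3.3 (limma 3.58.1), using TMM scaling, filterByExpr (minimum count 10, minimum total 15) and the quasi-likelihood test, called at a Benjamini-Hochberg adjusted p of 0.05. The model of E1 and E3 wild types had line as a term, and differences between responses were interaction terms. Scaled CPM uses joint TMM factors over the 21749 genes common to all tables, and levels per kb use the union of exons in GENCODE M21. Alternatives were DESeq2 1.42.0, RLE size factors, no filter, a GC offset, leaving out single libraries or those with pituitary markers above 500, a replicate block where the labels give shared numbers, and both feeding states in 1 model. The test was checked on simulated data. All 10 genes are named in every comparison, with other genes named only where called or most alike; intervals are 95%, and their precision rests on the depth and number of libraries.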

Additional observations from a re-analysis of the deposited data

Results flagged for a closer look

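In groups of 4 libraries, 9 of 120 sets of gene and group held 1 library far from the other 3, past Dixon's 95% limit; chance flags about 1 in 20. E5 fasted KO 3 had 180.6 scaled CPM of Chga, against 139 to 144 in the others of its group, and 312 of Chgb, against 132 to 144; its pituitary markers summed to 19604. E4 fed WT 4 had 429 of Pam, against 474 to 481, 428 of Pcsk2, against 263 to 278.7, and 102 of Vgf, against 203 to 215; its thalamus markers summed to 1940 and its hypothalamus markers to 205. E1 fasted KO 4 had 1441 of Cpe, against 1382 to 1390. E4 fasted WT 1 had 169 of Scg3, against 155 to 156. Vgf was 232 in E1 fed KO 3, against 165 to 169.9, and 208 in E5 fed KO 4, against 161 to 167. The part of the marker levels in these values was not tested.

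The fasting response differed between E3 and E1 wild types, by edgeR's interaction term, for 24 of 107 other genes of the pathway (22.4%), beside 13.1% of all genes. Of these, 14 are named, up to 2 per list and direction. E1 and E3 are separate batches, so line and batch cannot be told apart here. The difference, E3 minus E1 on the log2 scale, was positive for the peptide precursors Pmch (1.87, SE 0.30, adjusted p = 0.00371) and Cartpt (1.53), for Spcs1 (1.08) and Srp14 (0.57) of precursor entry, for the granule protein gene Resp18 (0.75), for Syt4 (0.90), Rab3b (0.52) and Arfip1 (2.09), and for the enzymes Qpct (0.63) and Pcsk5 (0.83). It was negative for the convertases Pcsk6 (-0.94, SE 0.15, adjusted p = 0.0038) and Furin (-0.58), for Tpst2 (-0.69) and for Syt7 (-0.89). The adjusted p of the other named genes ran from 0.00694 to 0.0446. In E3, the fasting response of knockouts differed from that of wild types for 5 of 108 (4.63%), beside 1.34% of all genes. Knockouts minus wild types, it was -0.70 for Syt4 (adjusted p = 0.0473), 0.96 for Pcsk6 (0.0397), -0.89 for Spcs3 (0.0255) and -0.81 for Spcs1 (0.0449). With the GC trend taken out, 0 genes in all were called in that last comparison, and 1072 in the difference between E3 and E1 wild types (1992 in the main fit).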

How the results depend on the processing

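Of the counts of members called, 299 alternatives left the count as it was or within 1.5 times, 13 raised it and 16 lowered it. Of the alternatives to called values of single genes 85 kept the call, 32 lost it and 0 changed sign. Single values were followed only where the unadjusted p was under 0.05 or some alternative gave a call, 40 in all. The remaining values, mostly nearer 0, were not followed, so these tallies do not cover them. Of the alternatives to followed values not called, 394 stayed so within 1 SE, 19 gained a call, 9 moved further and 3 changed sign. These were Vgf in the E2 fasted genotype comparison (-0.19), at 0.11 with the GC offset and at -0.48 to 0.55 with 1 library left out, and Chga in E3 fasted (0.29), at -0.0082 with the GC offset. In E1 and E3 wild types together 1 member was called with no filter, and 0 to 2 with 1 library left out. In E3 wild types 1 was called with the GC offset, and 0 to 3 with 1 library left out, 0 without E3 fed WT 3. DESeq2 called 1 in E3 knockouts, 2 in the difference between E3 and E1 wild types and 1 in the E3 fasted genotype comparison, where both feeding states in 1 model also gave 1. With 1 library left out, the range was 2 to 4 in E1 knockouts, 0 to 1 in E1 wild types, 2 to 4 in E5 over E2 wild types, 0 to 2 in the difference between lines and 0 to 1 in the E2 fasted genotype comparison. Dropping pituitary-high libraries was not run there, since all 3 wild types are such libraries.

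Over all genes, DESeq2 called 1453 in E1 wild types (784 by edgeR), 2471 in E1 and E3 wild types (1624), 405 in E3 knockouts (74), 1098 in the E3 interaction (202), 221 in E5 over E2 knockouts (0), 25 in the E2 interaction (0), and 539, 109 and 107 in the E3 fasted, E2 fasted and E3 fed genotype comparisons (0 each), with at most 21 in any other genotype comparison and 2 in each of the E4 and E5 interactions. Both feeding states in 1 model gave 605 in the E3 fasted and 4 in the E2 fasted comparison. The GC offset gave 1072 in the difference between lines (1992), 1262 in E1 wild types, 39 in E3 knockouts, 1851 in E3 wild types (2891), 20 in E4 fasted genotype (0) and 0 in the E3 interaction; dropping pituitary-high libraries gave 23 in E4 fasted genotype; no filter gave 115 in E3 knockouts and 169 in E4 fasted genotype. Leaving out 1 library gave 667 to 3192 in E1 and E3 wild types, 98 to 2566 in E1 wild types, 0 to 92 in E3 knockouts, 902 to 3764 in E3 wild types, 1153 to 2833 in the difference, 0 to 697 in the E3 interaction, 3782 to 6608 in E5 over E2 wild types (5749), 0 to 772 in E2 fasted genotype, 0 to 28 in the E2 interaction and 0 to 23 in E4 fasted genotype. The cause was not tested.

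The replicate block called 2 members in E3 wild types, where Chga lost its call (-0.36, adjusted p = 0.0965), and 0 in E3 knockouts, the E3 interaction and the genotype comparisons of E3 fed, E3 fasted, E4 fed and E5 fed. Same-numbered libraries, centred on their group means, correlated at r = -0.53 to 0.75. Whether a shared number marks a pairing cannot be told from these values. Over all genes the block gave 1633 in E3 wild types, 19 in E3 knockouts and 0 in the E3 interaction. The lowest count of a member in a library was 162, for Pcsk1.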
